A study of Lytechinus variegatus with 8 samples.

Results

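Genes named for the fibrinogen domain were measured in RNA from spines of Lytechinus variegatus, a sea urchin that carries long primary spines and shorter secondary spines. They were chosen by product name in the deposited gene table: names that contain tenascin, ficolin, fibrinogen, angiopoietin, techylectin or tachylectin, microfibril-associated glycoprotein 4 (MFAP4) or ryncolin, without receptors. This gave 44 of 26814 genes. The comparison was between 4 libraries of secondary spines, each from 100 spines, and 4 libraries of primary spines, each from 50 spines. All spines came from 4 wild-caught, wild-type animals of 1 color morph, and each animal gave 1 library of each kind, so a library pools many spines of 1 animal. The sources used here give neither age nor sex. In whole-spine RNA, more cells of a type and more RNA per cell cannot be told apart.

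The fibrinogen domain is a globe at the end of a protein chain that binds sugars, other proteins or receptors. Tenascins are vertebrate matrix glycoproteins in which this globe follows EGF-like and fibronectin type III repeats, and they change how cells attach to their matrix. Ficolins are secreted lectins that bind acetylated sugars on microbes and, in mammals, start the lectin route of complement. Techylectins are horseshoe crab lectins, ryncolins are snake venom proteins, and angiopoietins are ligands of Tie receptor kinases in vertebrates. MFAP4 is a matrix protein of elastic fibres in mammals, and fibrinogen C domain-containing protein 1 (FIBCD1) is a mammalian membrane protein that binds acetylated compounds such as chitin.

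The names held up only in part against the domains and Swiss-Prot matches that the deposited table lists. The domain was listed for 36 of the 44 members and not for the other 8. All 12 ficolin-named genes had it, as did all 6 angiopoietin-named, 4 MFAP4-named, 3 techylectin-named and 2 ryncolin-named genes and 8 of 10 fibrinogen-named genes, among which 5 carry the FIBCD1 name. Of 7 tenascin-named genes, 1 had it, LOC121430100, for which no EGF-like or fibronectin type III domain was listed. The Swiss-Prot match named the same subfamily for 16 members, another subfamily of the rule for 20 and a protein outside it for 3, and 5 had no match. FIBCD1 was the match of 14 members. Products are therefore given as names and not as functions shown in this animal, and all 7 tenascin-named genes, with or without the domain, are tenascins by name only. How similar the members' sequences are was not examined, and reads shared between close copies could have been split between them.

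Most members were close to silent in both kinds of spine, and a few tenascin-named genes carried most of the reads. Reads fell on 40 members, and 15 had a mean deposited FPKM (reads normalised to gene length and library size, with the authors' scaling) of 1 or more over the 8 libraries. A mean of 10 or more was reached by 5 members. The 3 members of highest FPKM, all tenascin-named, took 95.2% of the 212102 reads of the family. The 4 members without a read were angiopoietin-1-like LOC121417670, angiopoietin-related protein 1-like LOC121417694, ryncolin-1-like LOC121417674 and fibrinogen- and Ig-binding protein-like LOC121427865. A count of 0 in the 8 libraries together allows up to 0.0375 CPM (counts per 1e6 reads, scaled between libraries by TMM). Reads were found on 26 to 34 members in secondary libraries and on 19 to 24 members in primary libraries, at totals of 9252184 to 10738336 and 9623336 to 10902546 counted reads. Over all genes, secondary libraries had reads on 20652 to 21068 genes and primary libraries on 19773 to 20170 genes.

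**Figure D1:**
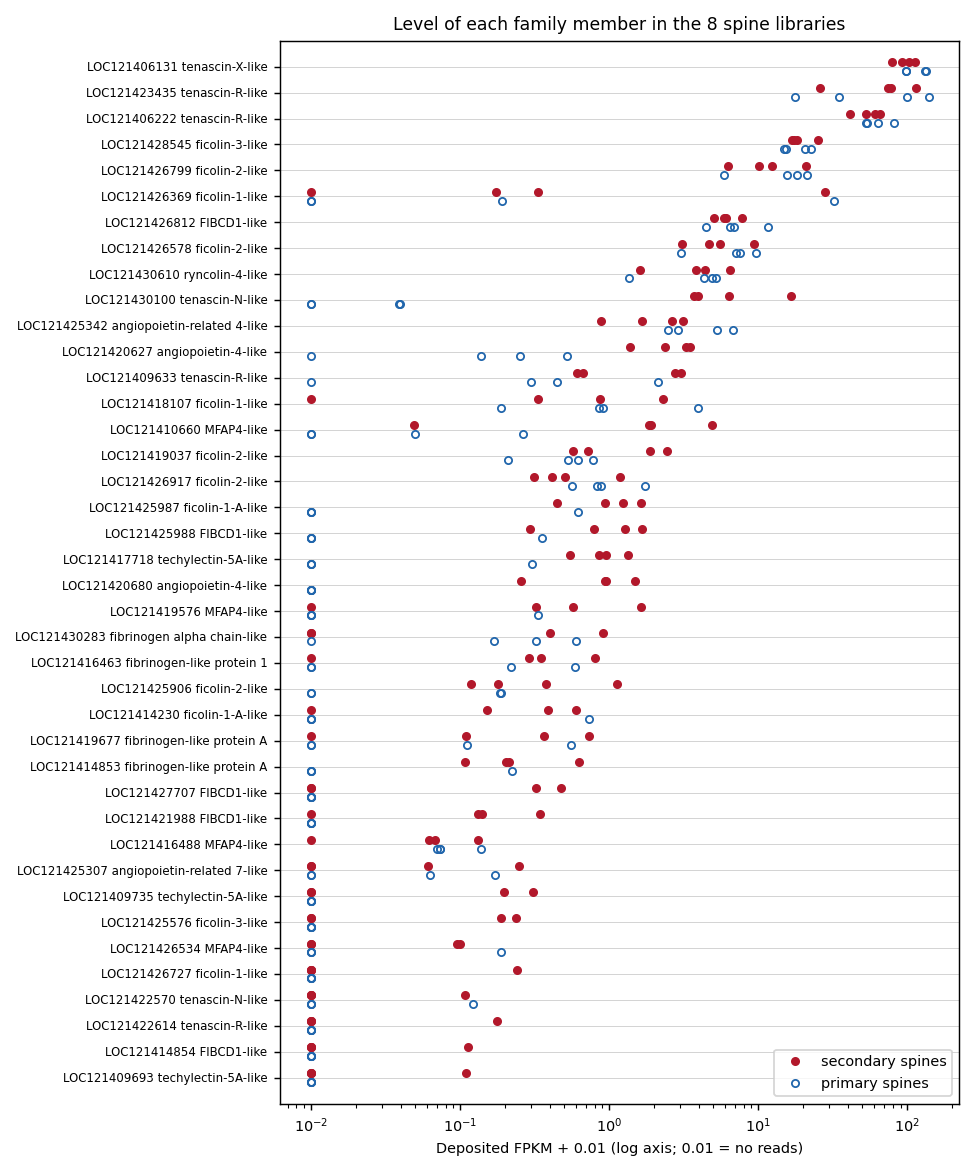
Deposited FPKM plus 0.01 on a log axis for the 40 members with reads, ordered by mean, with 1 point per library (filled, secondary spines, upper row of each gene; open, primary spines, lower row). The 3 tenascin-named genes at the top have means of 59.0 to 105.7 FPKM, and most genes of the lower part have several libraries without a read.

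Cell type markers were set beside these values. Ciliated epithelium markers (44 genes, none without reads) summed to 5177 to 6776 CPM in secondary and 970.5 to 2050 CPM in primary libraries. Skeleton-forming cell markers (20 genes, 3 without reads), among them spicule matrix genes, summed to 258 to 1630 and 219 to 1260 CPM, and muscle markers (12 genes, none without reads) to 1140 to 1687 and 1255 to 1769 CPM. Of 11 muscle markers tested as described below, 2 were called higher in secondary spines and 0 lower, beside 5.88% and 1.93% of all genes. Troponin T-like LOC121421391 was among these, with means of 19.0 CPM in secondary and 0.374 CPM in primary libraries. Tropomyosin-2-like LOC121415055 went the other way, with means of 318.1 CPM in secondary and 486.7 CPM in primary libraries. With the animal as a block, 3 muscle markers were higher and 1 lower, beside 12.4% and 11.7% of all genes. The median log2 fold change of the 11, secondary over primary, was -0.05 with group alone. Neuron markers (28 genes, 1 without reads) summed to 2106 to 2673 and 2760 to 3415 CPM, and immune and pigment cell markers (83 genes, 4 without reads) to 1157 to 1430 and 1597 to 1794 CPM, in each case with secondary libraries first. The sums of ciliated, neuron, and immune and pigment markers did not overlap between the groups, and their part in the results below was not tested. The neuron sums do not speak for every neuron marker. ELAV-like protein 3 LOC121423825 alone had means of 1300 CPM in secondary and 1874 CPM in primary libraries. Over the 24 neuron markers tested, the median log2 fold change of secondary over primary was 0.27. With group alone 2 were called higher and 1 lower, beside 5.88% and 1.93% of all genes. CUGBP Elav-like family member 1 LOC121406326, called higher, and synaptotagmin-like protein 4 LOC121413911, called lower, entered the list through the words Elav and synaptotagmin. Whether they mark neurons in this animal was not tested.

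Members were compared between secondary and primary spines with edgeR's quasi-likelihood test on all genes that passed its filter on low counts, with Benjamini-Hochberg adjustment over all of them and a threshold of 0.05. Log2 fold changes are secondary over primary, given with their standard errors, and values of CPM and FPKM after ± are SD over 4 libraries. Of 13 members that passed the filter, 2 rose, against 5.88% of all 16788 genes tested, and 0 fell, against 1.93%, which makes 7.81% of all genes in either direction. At an unadjusted p below 0.05 the counts were also 2 and 0. With the animal as a block, 2 rose and 1 fell, against 12.4% and 11.7% of all genes (24.1% together). DESeq2 called 4 higher and 0 lower of 24 members with an adjusted p, against 7.25% and 3.58% of all genes (10.8% together). DESeq2 with the block called 4 higher and 1 lower, against 10.7% and 9.91% (20.6% together). Without the filter on low counts, edgeR called 1 of 40 members higher and 0 lower, against 3.73% and 1.1% of all genes (4.83% together). The median log2 fold change of the 13 members was -0.18, beside -0.03 for all genes tested. The 2 groups of libraries did not overlap in CPM for 2 of the 13 members, against 15.2% of all genes tested.

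**Figure D2:**
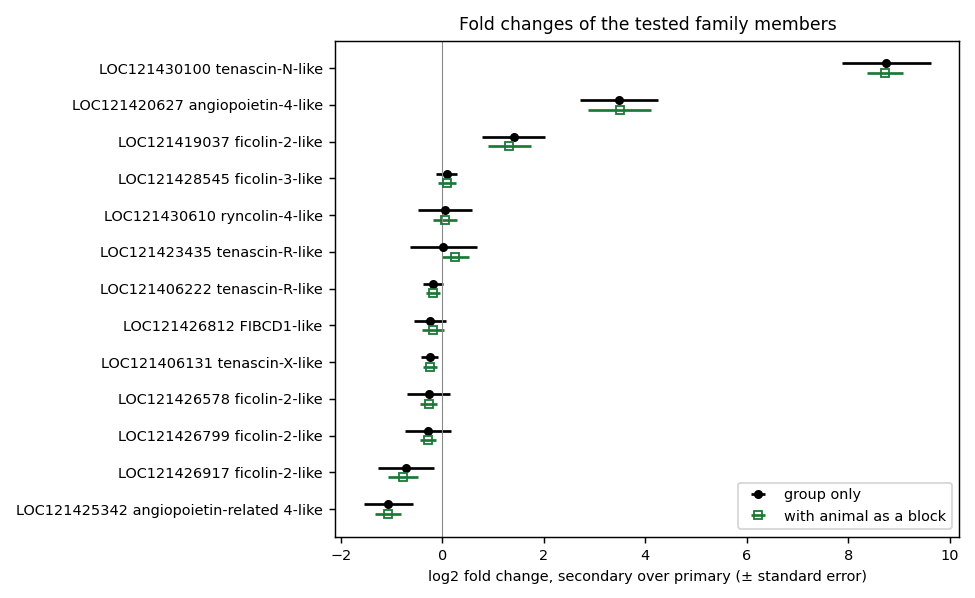
Log2 fold change of secondary over primary spines with its standard error for the 13 tested members, from the fit with group alone (filled circles) and with the animal as a block (open squares). Tenascin-N-like LOC121430100 lies at 8.76 and angiopoietin-4-like LOC121420627 at 3.48, and the other 11 lie between -1.06 and 1.40 with group alone.

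Among tenascin-named genes, LOC121430100, the only one listed with the fibrinogen domain, stood apart from the others. Tenascin-N-like LOC121430100 lies on chromosome 16 (8524694 to 8537826, minus strand) and was matched to ficolin-2, and no other gene of the table overlaps it. It had 629, 134, 147 and 264 reads in secondary libraries 1 to 4, against 1, 0, 1 and 0 reads in primary libraries 1 to 4. The lowest secondary library thus held 134 reads, the highest primary library 1, and library 1 was the highest of the secondary libraries. Its level was 7.64 ± 6.07 FPKM in secondary and 0.0146 ± 0.0169 FPKM in primary spines. The fold was called (log2 fold change 8.76 ± 0.88, edgeR adjusted p = 0.00127, and 4.4e-05 with the animal as a block), and it was called in each of 20 alternative fits, at 8.04 to 9.45 log2 units. The ratio of its summed reads between the groups has a counting interval (95%, exact) of 148.6 to 4448, which covers counting error only. The nearest genes, carbohydrate sulfotransferase 3-like LOC121429421 and the uncharacterized LOC121430403, had 0 and 5 reads in the secondary libraries together and 0 and 3 in the primary libraries together.

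The abundant tenascin-named genes had similar levels in both kinds of spine, and none of them had the domain listed. Tenascin-X-like LOC121406131 (chromosome 19, 14396735 to 14512204), with fibronectin type III and tyrosine phosphatase domains and a match to a fly tyrosine phosphatase, had 79.0, 111.8, 91.5 and 102.4 FPKM in secondary libraries 1 to 4, against 98.0, 98.0, 133.9 and 130.8 FPKM in primary libraries 1 to 4. The groups overlapped, and the gene lay above 97.6% of all tested genes in mean FPKM. It was not called (log2 fold change -0.25 ± 0.16, edgeR adjusted p = 0.483), but it was called lower with a correction for gene length (-0.57 ± 0.13, edgeR adjusted p = 0.0324). Its annotated span overlaps that of fibronectin-like LOC121406300 on the same strand. Tenascin-R-like LOC121406222 (chromosome 19, 4127442 to 4153892), with no domain and no match listed, had 65.8, 60.5, 41.0 and 53.0 FPKM in secondary libraries 1 to 4, against 82.0, 53.6, 63.2 and 52.9 FPKM in primary libraries 1 to 4. These values overlapped too (log2 fold change -0.18 ± 0.19, edgeR adjusted p = 0.730). The uncharacterized gene LOC121406223 overlaps it on the same strand. In both cases the counts depend on how reads of overlapping genes were assigned, on which the sources used here are silent.

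Tenascin-R-like LOC121423435 (chromosome 11, 29752931 to 29771099), also with no domain and no match listed, varied widely among animals. It had 84.2, 247.9, 373.8 and 237.5 CPM in secondary libraries 1 to 4, against 55.9, 111.9, 440.3 and 320.1 CPM in primary libraries 1 to 4. Animal 1 was the lowest and animal 3 the highest for both kinds of spine. The highest level was 4.44 times the lowest among secondary libraries and 7.87 times the lowest among primary libraries. The test made no call (edgeR adjusted p = 0.996) at a log2 fold change of 0.02 ± 0.65. With the animal as a block it made none either (0.26 ± 0.27, edgeR adjusted p = 0.543). The log2 ratio within animals 1 to 4 was 0.59, 1.15, -0.24 and -0.43, so its sign differed between animals. A further gene of this name, LOC121409633 on chromosome 1, with an EGF-like domain and overlapped by fibropellin-1-like LOC121429907, had 9, 43, 41 and 11 reads in secondary libraries 1 to 4, against 0, 31, 6 and 4 reads in primary libraries 1 to 4. It did not pass the filter on low counts. The other tenascin-named genes, LOC121422570 and LOC121422614, had 1 and 4 reads in the secondary libraries together and 1 and 0 in the primary libraries together.

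Angiopoietin-named genes went in different directions. Angiopoietin-4-like LOC121420627 (chromosome 8, 9362554 to 9371258) had 28, 28, 20 and 13 reads in secondary libraries 1 to 4, against 0, 2, 4 and 1 reads in primary libraries 1 to 4. The groups did not overlap, at 2.62 ± 0.951 FPKM in secondary and 0.222 ± 0.220 FPKM in primary spines. The gene was called higher (log2 fold change 3.48 ± 0.78, edgeR adjusted p = 0.0289, and 0.00674 with the animal as a block). That call rests on few reads and was lost without primary library 2 or 4 or any of the secondary libraries (edgeR adjusted p = 0.0513 to 0.0864) and without the filter (edgeR adjusted p = 0.0635). The second gene of this name, LOC121420680 (chromosome 8, 14578393 to 14588299), has 158 genes between it and the first. It has the same gene length of 816 bases and the same match, FIBCD1-B of the frog Xenopus laevis. It had 8, 2, 8 and 14 reads in secondary libraries 1 to 4, against 0 reads in each primary library. Its CPM was 9.78-fold higher in secondary spines when a floor of 3 reads was set for the primary libraries together. The secondary reads were taken as counted, without an error, and 0 primary reads allow up to 0.0784 CPM. LOC121420680 did not pass the edgeR filter, DESeq2 called it higher (DESeq2 adjusted p = 0.0141), and edgeR without a filter did not (edgeR adjusted p = 0.0629).

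Angiopoietin-related protein 4-like LOC121425342 (chromosome 12, 23974212 to 23979242), matched to a human protein that inhibits lipoprotein lipase, was lower in secondary spines within every animal. It had 1.36, 2.54, 4.87 and 4.04 CPM in secondary libraries 1 to 4, against 4.41, 3.79, 8.02 and 10.6 CPM in primary libraries 1 to 4. The groups overlapped, since animals 3 and 4 were high for both kinds of spine. The log2 ratio within animals 1 to 4 was -1.70, -0.58, -0.72 and -1.39. It was not called with group alone (log2 fold change -1.06 ± 0.49, edgeR adjusted p = 0.285) and was called with the animal as a block (-1.07 ± 0.25, edgeR adjusted p = 0.0191). The blocked call was lost without animal 1 or 4 (edgeR adjusted p = 0.067 and 0.0751). The last angiopoietin-named gene with reads, angiopoietin-related protein 7-like LOC121425307, had 6 reads in the secondary and 4 in the primary libraries together.

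**Figure D3:**
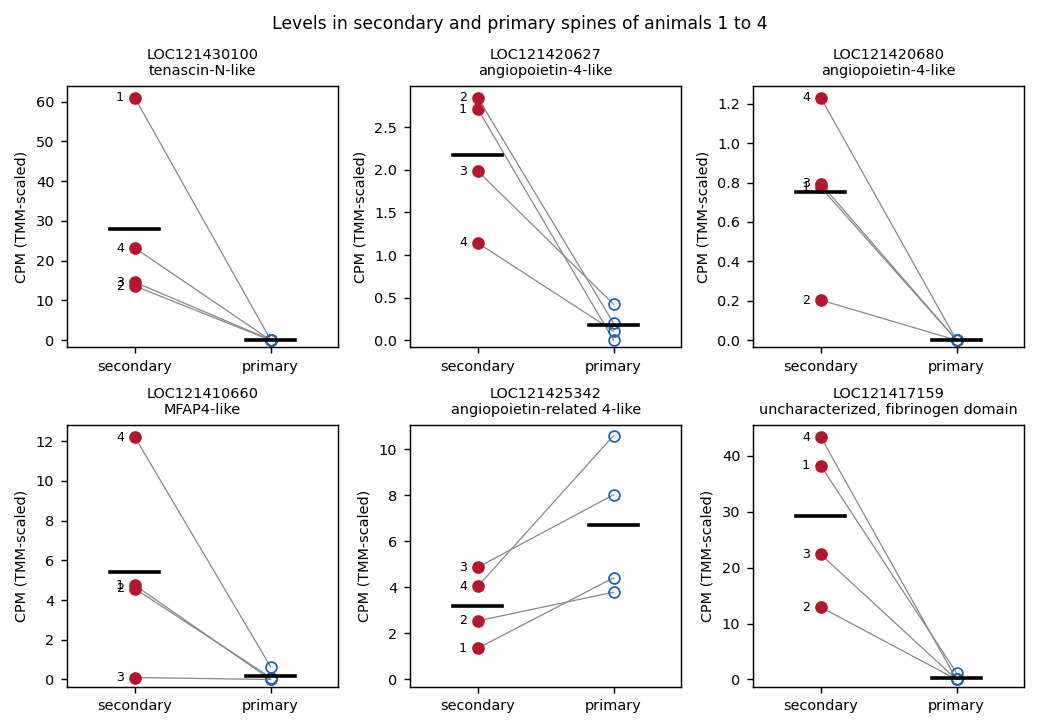
CPM of 6 genes in secondary (filled, left) and primary spines (open, right), with the 2 libraries of an animal joined, the animal number beside the secondary value and bars at the group means. All 4 animals had the higher value in secondary spines for each gene but angiopoietin-related protein 4-like LOC121425342, where all 4 had the lower value there. LOC121417159 has the fibrinogen domain but no family name.

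Ficolin-named genes were the largest named group, and 0 of the 5 tested were called, beside 7.81% of all genes tested. So few tested genes cannot show a difference from that share. Ficolin-3-like LOC121428545 (chromosome 15, 30909179 to 30919958), the most abundant member with the domain, had 25.2, 18.1, 17.4 and 16.9 FPKM in secondary libraries 1 to 4, against 15.5, 20.5, 22.6 and 14.9 FPKM in primary libraries 1 to 4. Both groups covered much the same range (log2 fold change 0.09 ± 0.20, edgeR adjusted p = 0.912). Ficolin-2-like LOC121426799 (chromosome 13, 19673797 to 19684119), matched to FIBCD1, followed at 6.30, 10.1, 20.9 and 12.3 FPKM in secondary libraries 1 to 4, against 5.88, 15.5, 21.3 and 18.1 FPKM in primary libraries 1 to 4. Animal 1 was the lowest and animal 3 the highest of either kind (log2 fold change -0.29 ± 0.45, edgeR adjusted p = 0.851). With the animal as a block LOC121426799 was not called either (-0.28 ± 0.15, edgeR adjusted p = 0.23). The other tested ficolin-2-like genes were LOC121426578 (-0.27 ± 0.43), LOC121426917 (-0.72 ± 0.55) and LOC121419037 (1.40 ± 0.62 log2 units), with edgeR adjusted p = 0.852, 0.591 and 0.260. Ficolin-2-like LOC121419037 had 41, 50, 12 and 17 reads in secondary libraries 1 to 4, against 15, 11, 12 and 4 reads in primary libraries 1 to 4, so animal 3 showed no difference. With the block and all animals it was not called (log2 fold change 1.32 ± 0.43, edgeR adjusted p = 0.06). Without animal 3 and with the block it was called higher (log2 fold change 1.78 ± 0.39, edgeR adjusted p = 0.0305). That fit leaves out the animal without a difference, so its call is no separate evidence. LOC121419037 lies 4897 bases from ficolin-1-like LOC121418107 on chromosome 7, on the other strand. LOC121418107 had 2, 5, 14 and 0 reads in secondary libraries 1 to 4, against 5, 5, 22 and 1 reads in primary libraries 1 to 4, with animal 3 the highest for both kinds of spine.

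Ficolin-1-like LOC121426369 (chromosome 13, 29709566 to 29713647), matched to tenascin-R, had reads almost only in animal 4. Its counts were 4, 0, 2 and 380 reads in secondary libraries 1 to 4, against 2, 0, 0 and 361 reads in primary libraries 1 to 4. At 28.1 FPKM in the secondary and 32.2 FPKM in the primary library of animal 4, it exceeded ficolin-3-like LOC121428545 there, at 16.9 and 14.9 FPKM. In the other animals it had at most 4 reads. It did not pass the filter, and without one edgeR estimated -0.19 on the log2 scale (edgeR adjusted p = 0.993). It was named, like LOC121418107, LOC121419037, LOC121425906 and LOC121409633, after its values were seen. Its neighbours on the same strand, MFAP4-like LOC121426534 and ficolin-2-like LOC121425906, are members as well and lie next to it with no other gene between them. LOC121426534 had 0 reads in both libraries of animal 4. LOC121425906 had 28, 4, 9 and 3 reads in secondary libraries 1 to 4, against 4, 0, 0 and 4 reads in primary libraries 1 to 4, so it was highest in animal 1 and did not share the pattern of its neighbour.

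**Figure D4:**
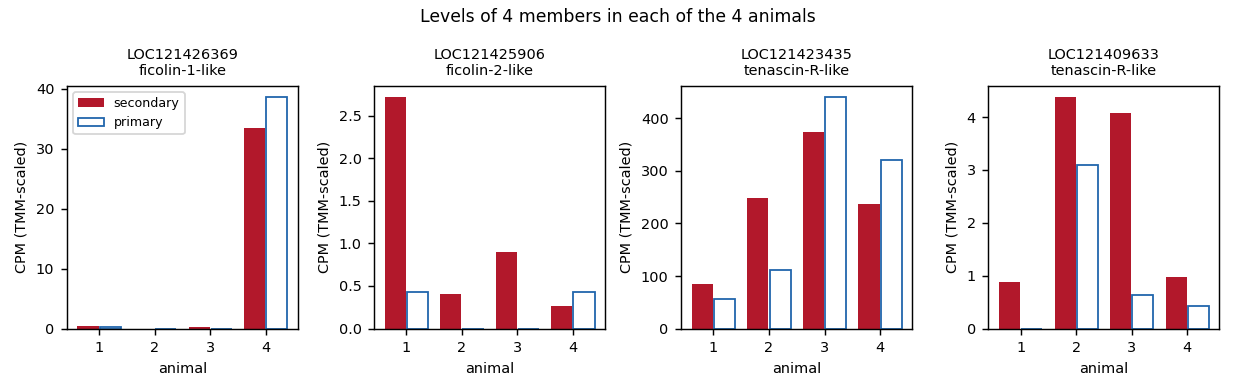
CPM of 4 members by animal, with the secondary library (filled) left of the primary library (open). Ficolin-1-like LOC121426369 reached 33.4 and 38.6 CPM in animal 4, and tenascin-R-like LOC121423435 had its lowest level in animal 1 and its highest in animal 3 for both kinds of spine.

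Members lay on 18 chromosomes. Chromosome 13 held 10 of them and chromosome 6 held 6. Without a gene between them stood 9 members in 4 runs: the 3 on chromosome 13 just described, ficolin-1-A-like LOC121425987 and FIBCD1-like LOC121425988 on the same chromosome, the ficolin pair on chromosome 7, and fibrinogen-like protein A LOC121414853 with FIBCD1-like LOC121414854 on chromosome 5. LOC121425987 and LOC121425988, 21619 bases apart on the same strand, had 29 and 25 reads in the secondary libraries together and 4 and 2 in the primary libraries together, and neither passed the filter. Ficolin-2-like LOC121426917 lies 10023 bases from integrin alpha-V-like LOC121426066.

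Among MFAP4-, techylectin-, ryncolin- and fibrinogen-named genes, 0, 0, 1 and 1 in that order passed the filter with all 8 libraries. The edgeR test made no call among them, beside 7.81% of all genes tested. The absence of calls is therefore no result about these groups of names. MFAP4-like LOC121410660 (chromosome 3, 27272232 to 27278229), the only member whose match is MFAP4 itself and with a PAN domain beside the fibrinogen domain, had 49, 45, 1 and 139 reads in secondary libraries 1 to 4, against 0, 1, 0 and 6 reads in primary libraries 1 to 4. Secondary library 3 was as low as the primary libraries, so the groups overlapped, and the gene did not pass the filter. The ratio of summed reads was 30.6 with a counting interval (95%, exact) of 14.6 to 77.0. DESeq2 called LOC121410660 higher (DESeq2 adjusted p = 0.00577), and edgeR without a filter did not (edgeR adjusted p = 0.119). Without secondary library 3 it passed the filter and was called (log2 fold change 5.19 ± 1.09, edgeR adjusted p = 0.0364), and likewise without animal 3 with the block (edgeR adjusted p = 0.00432). Both fits leave out the low secondary library, so these calls are no separate evidence. Techylectin-5A-like LOC121417718 had 4, 6, 7 and 11 reads in secondary libraries 1 to 4, against 0, 0, 2 and 0 reads in primary libraries 1 to 4. These groups did not overlap, but the gene was below the filter and not called by DESeq2 (DESeq2 adjusted p = 0.0984). Ryncolin-4-like LOC121430610, matched to tenascin-R, had 4.09 ± 2.01 FPKM in secondary and 3.95 ± 1.77 FPKM in primary spines (log2 fold change 0.06 ± 0.53, edgeR adjusted p = 0.985). FIBCD1-like LOC121426812, the most abundant fibrinogen-named gene, had 6.19 ± 1.13 and 7.36 ± 3.04 FPKM (log2 fold change -0.24 ± 0.31, edgeR adjusted p = 0.797).

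Among the 27 members with reads that did not pass the filter, which had 1 to 749 reads in all, mean CPM was higher in secondary spines for 22 (81.5%) and lower for 5. Over all 6998 genes with reads that did not pass it, the mean was higher in secondary spines for 62.7%. No read in the primary libraries fell on 9 of the 27, and 0 of the 27 lacked reads in the secondary libraries. The counts per gene are small, with 10 reads or fewer for 12 of them, and these shares were not tested. The summed CPM of the 36 members with the domain was 137.6 ± 24.7 in secondary and 110 ± 34.2 in primary libraries, and 109.5 ± 18.7 and 110 ± 34.3 without LOC121430100. Without that gene the domain-bearing members therefore had much the same summed level in both kinds of spine.

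The deposited table lists the domain for 5 further genes without a family name, and 1 of them had a difference like that of tenascin-N-like LOC121430100. The uncharacterized LOC121417159 (chromosome 6, 19852946 to 19881870) is listed with PAN, MAM and scavenger receptor cysteine-rich domains beside the fibrinogen domain. It had 394, 127, 225 and 493 reads in secondary libraries 1 to 4, against 11, 0, 0 and 0 reads in primary libraries 1 to 4. Every secondary library was far above every primary library, and the primary reads lay in library 1 alone. It was called (log2 fold change 6.59 ± 1.11, edgeR adjusted p = 0.0083). Without primary library 1 it was called too (edgeR adjusted p = 0.00712). The ratio of CPM was then 286.4 over a floor of 3 reads in the other primary libraries together, with the secondary reads taken as counted. The other 4 were not called or did not pass the filter: LOC121426933 had 117 and 179 reads, LOC121425541 had 34 and 35, LOC121417695 had 22 and 0, and LOC121425996 had 11 and 2, in the secondary and then the primary libraries together. They were named after their values were seen.

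Known partners of these proteins were described from lists made by product name. Tie-type receptors (receptor kinases that bind angiopoietins in vertebrates) had 0 of 11 tested genes higher and 0 lower, and 1 higher and 5 lower with the animal as a block, beside 12.4% and 11.7% of all genes with the block, with a median log2 fold change of -0.44. Angiopoietin-1 receptor-like LOC121423497 had 9.70, 14.1, 4.77 and 16.5 CPM in secondary libraries 1 to 4, against 16.1, 31.1, 13.3 and 41.5 CPM in primary libraries 1 to 4. It was lower in secondary spines in all 4 animals although the groups overlapped (blocked log2 fold change -1.16 ± 0.15, edgeR adjusted p = 0.00164, and 0.212 with group alone). Of 10 tested genes of the complement list, 0 were called either way, and 1 was higher and 1 lower with the block, close to the shares of all genes (12.4% and 11.7%). Mannose-binding protein C-like LOC121423513, a lectin name of the complement route, had 15.3, 8.14, 7.15 and 4.74 CPM in secondary libraries 1 to 4, against 5.70, 2.19, 2.11 and 2.24 CPM in primary libraries 1 to 4 (blocked log2 fold change 1.53 ± 0.21, edgeR adjusted p = 0.00216, and 0.107 with group alone). Complement C3-like LOC121428641, the central complement protein in vertebrates, had 406.4 ± 70.4 CPM in secondary and 603.6 ± 120.5 CPM in primary spines (blocked log2 fold change -0.57 ± 0.11, edgeR adjusted p = 0.00929, and 0.117 with group alone). Its blocked call was lost without animal 3 (edgeR adjusted p = 0.0502).

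Of 61 tested genes of the integrin and matrix list, 5 were higher and 3 lower, beside 5.88% and 1.93% of all genes. The 5 include LOC121422333 and LOC121425095, which are named for ankyrin repeats and fibronectin type III domains. They entered the list through the word fibronectin and are not named as integrins or matrix proteins. The others called higher are the laminin-named genes given below. With the block 11 were higher and 16 lower, beside 12.4% and 11.7% of all genes, and the median log2 fold change was -0.12 with group alone. Integrin alpha-V-like LOC121426066, a subunit of receptors that bind tenascins in vertebrates, had 109.2, 99.9, 99.1 and 98.7 CPM in secondary libraries 1 to 4, against 186.6, 180.7, 188.9 and 167.2 CPM in primary libraries 1 to 4. The groups lay far apart beside their spread, and the gene fell (log2 fold change -0.83 ± 0.10, edgeR adjusted p = 0.00185). Integrin beta-1-A-like LOC121426622 had 326 ± 25.0 CPM in secondary and 466.8 ± 19.0 CPM in primary spines and fell (edgeR adjusted p = 0.0135, log2 fold change -0.52 ± 0.10). Scaling by library size alone ended that call (edgeR adjusted p = 0.0721). Laminin subunit gamma-2-like LOC121429056, a basement membrane chain, had 93.4, 118.8, 101.3 and 132.6 CPM in secondary libraries 1 to 4, against 30.6, 39.7, 22.8 and 15.2 CPM in primary libraries 1 to 4, and rose without overlap (log2 fold change 2.04 ± 0.29, edgeR adjusted p = 0.00385). Genes named laminin subunit beta-1-like did not share a direction. LOC121416226 and LOC121428978 rose by 1.74 ± 0.17 and 1.70 ± 0.29 log2 units (edgeR adjusted p = 0.00127 and 0.00842). LOC121410199 had 184 ± 23.3 CPM in secondary and 264.4 ± 35.7 CPM in primary spines and was called lower with the block alone (blocked log2 fold change -0.52 ± 0.11, edgeR adjusted p = 0.0139, and 0.0555 with group alone). LOC121410209 had 138.7 ± 24.4 CPM in secondary and 198.3 ± 26.3 CPM in primary spines, again lower with the block alone (blocked log2 fold change -0.52 ± 0.10, edgeR adjusted p = 0.00969, and 0.0913 with group alone). These partner genes were picked from their lists after their values were seen.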

How the data were processed

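Messenger RNA was sequenced from 4 secondary and 4 primary spine libraries of 4 animals. Alignment and counting tools in the submitters' processing notes are HISAT2 2.0.5 and featureCounts, and assembly 3.0 of this species is named in the series' design text. The strand setting and the treatment of reads of several places or genes are not given in the sources used here. The authors' deposited counts are whole reads per gene. The authors' deposited FPKM equalled count over gene length and 1 library constant, which was 1.06 to 1.08 times the total in secondary and 0.905 to 0.994 times in primary libraries, so they carry a scaling beyond depth. Domains and Swiss-Prot matches are those of the deposited table. All 44 members matched the RefSeq gene table of assembly Lvar_3.0, which gave chromosome numbers, by gene ID, start and end.

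Counts were tested with edgeR 4.0.16 in R 4.3.3 (filterByExpr, TMM, robust glmQLFit, glmQLFTest) with group as the only term, adjusted by Benjamini-Hochberg over 16788 genes. Each standard error was derived from the fold change and its F statistic (absolute log2 value divided by the root of F). The test recovered changed genes in simulated counts with large changes and independent libraries. That simulation held no animal effect, so it does not speak for libraries that share animals, as these do. Members, lists and the naming rule were chosen with earlier results of these data known. Named were called members, members called only with the block, the 5 of highest FPKM, the top member of each subfamily and members with 20 or more reads in 1 group and 0 in the other. All other genes named were chosen after their values were seen. Titles number both kinds of spine 1 to 4. Libraries with the same number deviated together from their group means (correlations of log2 CPM deviations of 0.733 to 0.811, and of -0.317 to -0.200 for unlike numbers). Deviations from a group's own mean cancel out over its libraries. The negative values therefore follow from the positive ones and are no separate evidence. As the design text gives the same 4 animals for both kinds, equal numbers were read as 1 animal. Libraries within a group differed beyond sampling noise (chi-square per gene 35.2 to 57.3), so all were kept as separate samples. Alternatives were the replicate block, DESeq2 1.42.0, other scalings, no filter, a gene length correction (loess on log2 length), leaving out libraries or animals, and membership by domain. Intervals and floors cover counting error only.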

Additional observations from a re-analysis of the deposited data

Results flagged for a closer look

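In groups of 4, a library was looked for whose gap to the next, as a share of the group's range, passed Dixon's 95% critical value. Both groups were examined for 36 named genes with 20 or more reads, 72 groups in all. Of these, 13 held such a library, where the critical value is set for about 1 in 20 with normally distributed values. The 13 cannot be set against that share. Some of these genes were named after their values were seen, and a group with reads in 1 library alone always meets the rule. Ficolin-1-like LOC121426369 met this in both groups through animal 4, with 33.4 CPM in the secondary and 38.6 CPM in the primary library. The next libraries had 0.388 and 0.215 CPM. Ficolin-3-like LOC121428545 had 34.2 CPM in secondary library 1. MFAP4-like LOC121410660 had 0.641 CPM in primary library 4, techylectin-5A-like LOC121417718 had 0.211 CPM in primary library 3 and LOC121417159 had 1.18 CPM in primary library 1, from 6, 2 and 11 reads in that order. Primary reads of 2 further members lay in 1 library each, ficolin-1-A-like LOC121425987 with 0.399 CPM in library 2 and FIBCD1-like LOC121425988 with 0.211 CPM in library 3. Among partner genes, secondary library 1 was the highest for integrin alpha-V-like LOC121426066 at 109.2 CPM and for laminin subunit beta-1-like LOC121410199 at 218.5 CPM, and secondary library 4 the lowest for integrin beta-1-A-like LOC121426622 at 288.7 CPM. Primary library 1 was the highest for mannose-binding protein C-like LOC121423513 at 5.70 CPM, and primary library 2 for laminin subunit beta-1-like LOC121416226 at 27.7 CPM.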

How the results depend on the processing

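With the replicate block, that is the animal as a term, the number of members called higher was 2, as without it, and 1 was called lower (0 without it). The gene length correction called 1 lower, tenascin-X-like LOC121406131, and 2 with the replicate block. DESeq2 called 4 higher and 0 lower of 24 members with an adjusted p, where the median fold change was 0.85 (log2). With the replicate block it called 4 higher and 1 lower, with a median of 0.72. DESeq2 gave an adjusted p for 11 members that edgeR's filter left out, with 18 to 241 reads each. Without the filter on low counts 1 of 40 was called higher, with a median of 1.05. Leaving out 1 library gave 1 to 2 members higher, 0 lower and a median of -0.22 to 0.10. The median was above 0 without primary library 3 or 4 (0.10 and 0.08). Leaving out 1 animal, with the replicate block, gave 2 to 4 higher, 0 to 1 lower and a median of -0.17 to 0.09, and the 4 and the 0.09 came without animal 3. Shares of all genes called without a library or animal are not given here, so these counts cannot be set against other genes. With all 8 libraries the replicate block called 24.1% of all genes. The medians above cover the members each fit tested, 13 to 15 when a library or animal was left out. Over the same 13 members, a set of values added after seeing the data, the median lay between -0.24 and 0.002 in the alternatives other than membership by domain, and it was above 0 only without primary library 4. Scaling by library size alone moved the median of all genes from -0.03 to 0.14 and changed no count. Membership by the deposited domain, chosen after seeing the data, gave 3 higher and 0 lower of 13, beside 5.88% and 1.93% of all genes with group alone. MFAP4-like LOC121410660 was called without secondary library 3, and LOC121410660 and ficolin-2-like LOC121419037 were called without animal 3. For both genes these fits leave out the animal or library with little difference, so the calls are no separate evidence. The filter on low counts left 27 of 40 members with reads without a test in edgeR. These members had 1 to 749 reads in all, and the 749 reads of ficolin-1-like LOC121426369 lay almost only in animal 4.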
